A study of Mus musculus with 11 samples.

Results

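The gasdermins are a family of pore-forming proteins, and their transcript levels were described in the distal colon of wild-type mice and of mice that lack neuregulin-4. The members were all genes of the deposited table whose symbol starts with Gsdm, which gave 9 of the 22243 genes listed: Gsdma, Gsdma2, Gsdma3, Gsdmc, Gsdmc2, Gsdmc3, Gsdmc4, Gsdmd and Gsdme. Polyadenylated RNA of full-thickness tissue was sequenced from 6 wild-type mice (WT) and 5 mice homozygous for the Nrg4 knockout (Nrg4-/-, KO), all adults of 11 to 12 weeks, both sexes included. Genotypes were mixed within cages from 9 weeks of age, with 2 mice of each genotype in cage A, the same in cage B, and 2 WT with 1 KO in cage C. Mice are named by genotype and number, and each mouse is 1 replicate. The labels name no strain and no treatment for either genotype. Nrg4 was listed at 0 in all 11 mice, so the knockout could not be checked from its own level.

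Gasdermins are made as inactive proteins in which a carboxy-terminal domain holds back a pore-forming amino-terminal domain. When a protease cuts the linker between them, the freed part oligomerises in the plasma membrane, and the cell releases interleukins and can lyse, a form of death called pyroptosis. Caspase-1 and caspase-11 (the mouse gene Casp4) cut gasdermin D downstream of inflammasomes, and caspase-8 can cut gasdermin C. In the mouse gut the Gsdmc2, Gsdmc3 and Gsdmc4 genes are known for expression in epithelial cells and for a rise with type 2 cytokines during worm infection.

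The C genes lie side by side on the minus strand of chromosome 15 (mm10): Gsdmc at 63775968 to 63808759, Gsdmc2 at 63824346 to 63845177, Gsdmc3 at 63857724 to 63878558 and Gsdmc4 at 63891264 to 63912297. Gsdmd lies on the plus strand of the same chromosome, at 75862327 to 75867408. The A genes are clustered on chromosome 11, with Gsdma at 98664351 to 98677708, and Gsdme lies on chromosome 6. None of the 9 is on chromosome 9, which carries Nrg4.

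The coding sequences of Gsdmc2, Gsdmc3 and Gsdmc4 are all 1440 bases long and are close copies, which limits how far reads of 75 bases can be assigned to one of them. Gsdmc2 and Gsdmc3 were identical at 97.1% of aligned coding bases, with 42 differences, and Gsdmc4 was identical to Gsdmc2 at 93.7% and to Gsdmc3 at 93.8%. Gsdmc was farther from all of them, with 86.7% to Gsdmc2. Gsdmd and Gsdme were both far from Gsdmc4, at 55.0% and 55.4% of aligned bases (746 and 734 identical bases). These values do not rank Gsdmd and Gsdme by relatedness, which was not tested. The 75-base stretch that separates the trio best is shown here from the GENCODE M21 transcripts (GRCm38), with capitals at the 19 positions where they are not all the same; it covers coding bases 788 to 862 of Gsdmc2 and Gsdmc3 and 794 to 868 of Gsdmc4.

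Gsdmc2: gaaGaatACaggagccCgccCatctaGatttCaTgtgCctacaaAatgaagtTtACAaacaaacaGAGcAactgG
Gsdmc3: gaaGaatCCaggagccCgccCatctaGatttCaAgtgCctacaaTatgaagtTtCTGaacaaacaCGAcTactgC
Gsdmc4: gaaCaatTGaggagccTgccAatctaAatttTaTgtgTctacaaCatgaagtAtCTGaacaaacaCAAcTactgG

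The opposite case is the longest run that is identical in these 3 genes, 171 coding bases (519 to 689 of Gsdmc2), within which no read can be placed on one of them: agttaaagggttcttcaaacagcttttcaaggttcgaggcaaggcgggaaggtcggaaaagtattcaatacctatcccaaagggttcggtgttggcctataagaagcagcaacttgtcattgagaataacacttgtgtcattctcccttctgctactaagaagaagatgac. Of the 1366 coding windows of 75 bases in each gene, 31.9% of those of Gsdmc2, 36.7% of those of Gsdmc3 and 33.6% of those of Gsdmc4 also occurred in another of the trio. Reads from those windows can be given to one of these genes only by the quantifier's estimate.

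**Figure D1:**
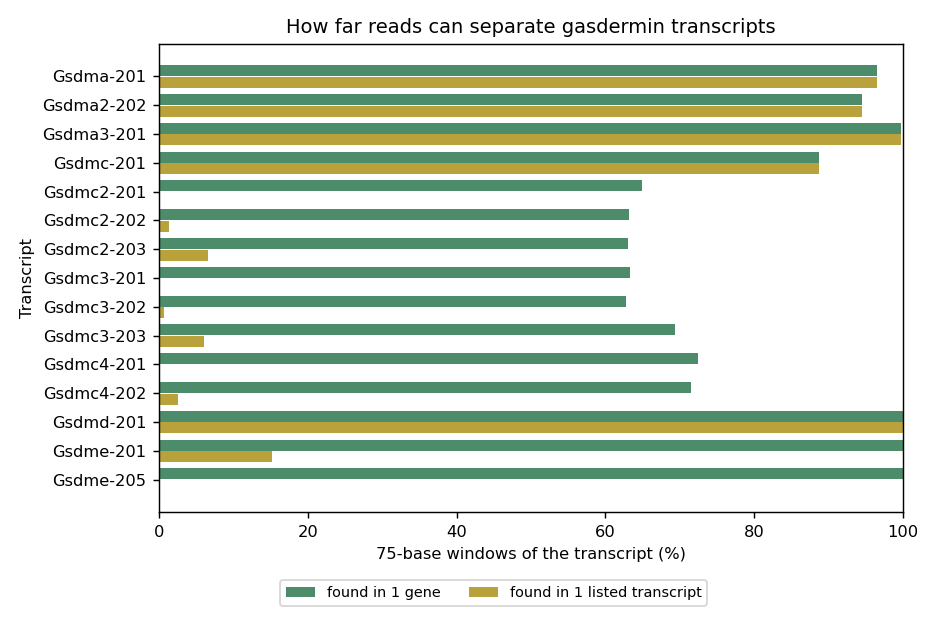
Share of 75-base windows of each listed gasdermin transcript (x axis, %) that occur in 1 gene only among all GENCODE M21 transcripts (green) and in 1 listed transcript only (yellow). The Gsdmc2, Gsdmc3 and Gsdmc4 transcripts sit between 62.8% and 72.5% for the gene and at or below 6.61% for the transcript, while Gsdmd-201 reaches 100% for both.

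The table lists 15 gasdermin transcripts, and for the C genes the transcripts of one gene share their coding exons and differ in the untranslated exons at the start. Gsdmc2-201 and Gsdmc4-201 have no window of 75 bases of their own, Gsdmc4-202 has 51 of 2011 windows and Gsdmc3-202 has 14 of 2105. Gsdmd-201 and the Gsdme transcripts share no window with another gene. TPM (transcript abundance per length and library total) was for this reason summed per gene for the main comparisons. Values of single transcripts are named as such where they are given. The sum per gene does not remove the sequence shared between Gsdmc2, Gsdmc3 and Gsdmc4.

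Levels were compared next, which TPM allows between genes because it is per transcript length. Gsdmc4 was the most abundant gasdermin, with 619 ± 97.4 TPM over all mice (SD, n = 11), which ranked 153 among the 22243 genes. Gsdmc2 followed with 299 ± 39.4 TPM (rank 242), Gsdmc3 with 178 ± 30.1 TPM (rank 386) and Gsdmd, the executor of inflammasome-driven pyroptosis, with 92.3 ± 15.8 TPM (rank 741). Gsdme, known also as the deafness gene Dfna5, was far lower at 2.33 ± 0.158 TPM, and Gsdma, a gasdermin of skin and upper gut, stood at 0.925 ± 0.432 TPM. Gsdma2 and Gsdma3 were listed at 0 in all mice, and Gsdmc did not exceed 1.48e-06 TPM in any mouse.

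This order was the same in each of the 11 mice. The ratio of Gsdmc4 to Gsdmc2 ranged from 1.52 to 2.64, that of Gsdmc2 to Gsdmc3 from 1.42 to 1.83, and that of Gsdmc3 to Gsdmd from 1.52 to 2.54. The step from Gsdmd to Gsdme was the widest among the expressed members, 26.6 to 54.5, and the smallest ratio of Gsdme to Gsdma was 1.27, in KO-1. No neighbours in the order exchanged places in a mouse. Of the summed gasdermin TPM, Gsdmc4 made up 51.8 ± 5.34%, Gsdmc2 25.1 ± 2.45%, Gsdmc3 12.4% to 20.0% and Gsdmd 7.79 ± 1.42% (SD, n = 11).

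**Figure D2:**
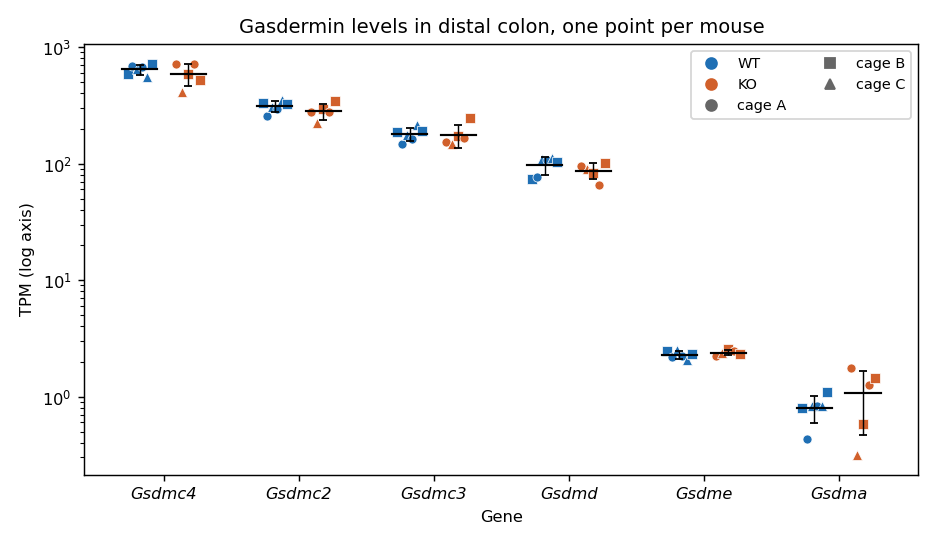
TPM on a log axis for the 6 gasdermins above the floor, with 1 point per mouse coloured by genotype and shaped by cage; black bars are the mean and SD of each genotype. Gsdmc4 is highest and Gsdma lowest in every mouse, the genotypes overlap for each gene, and KO-3 (orange triangle) is the lowest mouse for Gsdmc4, Gsdmc2 and Gsdmc3.

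Markers of the tissue were in the main those of colon. Of 10 small intestine markers 7 had a mean under 1 TPM, and 3 reached it. Their sum was 33.6 to 67.9 TPM in WT and 23.1 to 40.0 TPM in KO. The summed level of 16 surface colonocyte markers, the cells at the crypt mouth, was 19030 to 29148 TPM in WT and 21124 to 25313 TPM in KO, and all 9 squamous epithelium markers, Krt5 and Trp63 among them, had a mean under 1 TPM. A pair of libraries stood apart, KO-3 and KO-1. In the first, mitochondrially encoded genes made up 42.9% of all TPM listed for KO-3, against 19.0% to 31.4% for the other mice. KO-3 also had the lowest goblet marker sum, 4844 TPM against 5750 to 12411 TPM elsewhere, and the highest sum of crypt base and cycling markers, 179 against 108 to 161 TPM, while its colonocyte marker sum of 23025 TPM lay in the middle. Its sum of the 7 listed smooth muscle markers was the lowest as well, 2569 against 2755 to 5145 TPM. KO-1 had the highest sum of 8 T and NK cell markers, 77.0 TPM against 0.819 to 29.3 TPM in the other mice. That sum rests on few genes, as 5 of the 8 (Cd3d, Cd4, Cd8a, Gzmb and Nkg7) had a mean under 1 TPM. Genotype differences of the tested gasdermins are given with and without KO-3. In bulk tissue, fewer cells of a type and less RNA per cell cannot be told apart.

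The main question was whether loss of neuregulin-4, a ligand of the epithelial receptor ErbB4, went with a change in gasdermin transcripts. No member passed the test. The filter of at least 1 TPM in at least 5 mice kept 5 of the 9 members (Gsdmc2, Gsdmc3, Gsdmc4, Gsdmd and Gsdme), and 0 of the 5 passed limma at an adjusted p of 0.05 or at an unadjusted p of 0.05. Among all 10756 genes tested, 4 passed, 0.0372%, and 3.1% had an unadjusted p below 0.05. In the authors' deposited table the q was 1 for each gasdermin transcript that has one. Genotypes overlapped for all of these genes, as for nearly all genes tested (0.223% did not overlap).

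Gsdmc4 had 551, 661 and 717 TPM as the lowest, median and highest of the WT mice, and 711 (KO-1), 413 (KO-3), 583 (KO-4), 723 (KO-8) and 526.3 (KO-9) TPM in the KO mice. The KO values were the more scattered, with the highest and the lowest of all mice among them. The WT mean was 643 ± 63.1 TPM (SD, n = 6) and the KO mean 591 ± 130 TPM (SD, n = 5). The log2 fold change on the log2(TPM + 0.5) scale was -0.19 ± 0.11 (SE), with a 95% interval of -0.43 to 0.05 and a limma adjusted p of 1.00. That interval spans KO levels of 0.742 to 1.04 times the WT level.

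Gsdmc2 had 258, 316 and 354 TPM as the lowest, median and highest WT values. The KO mice had 275 (KO-1), 223 (KO-3), 296 (KO-4), 277 (KO-8) and 347 (KO-9) TPM. KO-3 lay below all other mice and the remaining KO mice lay within the WT range. The log2 fold change was -0.15 ± 0.10 (95% interval -0.39 to 0.08; limma adjusted p = 1.00).

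Gsdmc3 showed the smallest genotype difference of the trio. It had 147, 181 and 215 TPM as the lowest, median and highest WT values. The KO mice had 154 (KO-1), 146 (KO-3), 172 (KO-4), 165 (KO-8) and 245 (KO-9) TPM, so that KO mice held both the lowest and the highest value. The log2 fold change was -0.04 ± 0.12 (95% interval -0.31 to 0.23; limma adjusted p = 1.00).

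For these 3 genes the values without 1 mouse, KO-3, lay nearer 0 or above it. The summed TPM of Gsdmc2, Gsdmc3 and Gsdmc4 was 782 in KO-3 and 1051 to 1235 in the other 10 mice. Without KO-3 the log2 fold change went to -0.07 for Gsdmc4, to -0.02 for Gsdmc2 and to 0.08 for Gsdmc3. With TPM rescaled to a common total without the mitochondrially encoded genes, Gsdmc4 was 938 in KO-3 and 1082 to 1573 in the other mice. KO-3 was thus still the lowest for Gsdmc4, but not for Gsdmc3. Rescaled instead to the mean of these totals over the mice, TPM is divided by 0.928 in KO-3, by 0.960 in WT-5 and by 1.06 in KO-8. This put Gsdmc3 lowest in WT-5 (147 TPM as listed), then in KO-8 (165 TPM as listed) and then in KO-3 (146 TPM as listed). The part of the mitochondrial share in the KO-3 values was not tested.

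Gsdmd was measured free of shared sequence. It had 73.5, 105 and 112 TPM as the lowest, median and highest of the WT mice. The KO mice had 95.6 (KO-1), 89.8 (KO-3), 83.7 (KO-4), 65.0 (KO-8) and 100 (KO-9) TPM, with KO-8 the lowest of all and no KO mouse above the WT maximum. WT averaged 96.7 ± 17.3 TPM against 86.9 ± 13.8 TPM for KO, and the log2 fold change was -0.12 ± 0.15 (95% interval -0.44 to 0.21; limma adjusted p = 1.00). It lay between -0.21 (without WT-2) and -0.03 (without KO-8) with 1 mouse left out, and was -0.06 without KO-3. The level of Gsdmd in KO-3 lay within the range of the other mice, unlike that of the C genes.

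Gsdme varied least. It had 2.05 to 2.52 TPM in WT and 2.22 to 2.57 TPM in KO, with means of 2.29 ± 0.174 and 2.39 ± 0.134 TPM and a log2 fold change of 0.05 ± 0.12 (95% interval -0.22 to 0.32; limma adjusted p = 1.00). Without KO-3 it was 0.05. At this level the pseudocount of 0.5 compresses the fold change. Gsdma fell below the filter, with 4 mice at 1 TPM or more, and has no test. It had 0.436 to 1.10 TPM in WT and 1.75 (KO-1), 0.314 (KO-3), 0.576 (KO-4), 1.25 (KO-8) and 1.44 (KO-9) TPM in KO, so KO mice held both ends of the range.

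**Figure D3:**
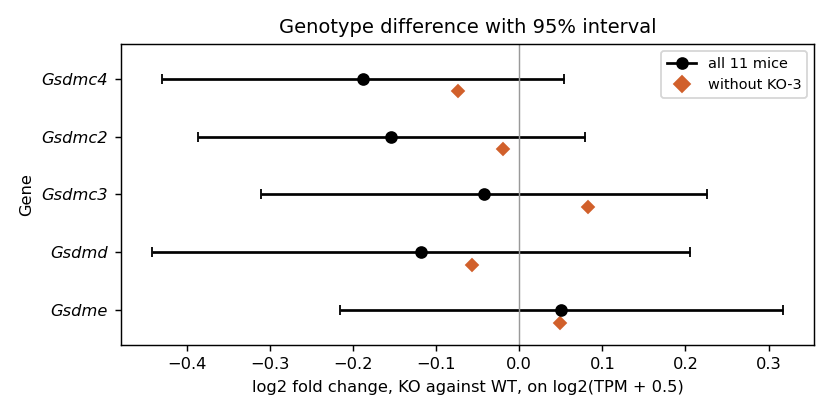
Log2 fold change of KO against WT on log2(TPM + 0.5) for the 5 tested gasdermins (x axis), with the 95% interval from limma in black for all 11 mice and orange diamonds for the value without KO-3. Every interval includes 0, and the diamond of Gsdmc3 lies at 0.08 on the other side of 0 from its estimate of -0.04.

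The labels also give cages, so the members were compared between cages. No gasdermin passed the F test on cage (limma), nor did any of the 10756 genes (0%). The filter of 1 TPM in at least 5 mice leaves out any gene expressed only in the 4 mice of cage A. With no filter 4 genes passed the F test on cage. Gsdmc4 had the smallest unadjusted p of the members, 0.0292 (adjusted p = 0.379), and 12.1% of all genes had an unadjusted p below 0.05. Its mean was 698 ± 22.3 TPM over the 4 mice of cage A against 574 ± 95.1 TPM over the other 7 mice (SD), and the mice overlapped; 4.04% of all genes did not overlap in this split. Gsdmc2 and Gsdmc3 leaned the other way, with 277 ± 15.7 against 312 ± 44.1 TPM and 157 ± 7.93 against 190 ± 31.9 TPM, and did not pass (adjusted p = 0.560 and 0.497).

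The balance within the cluster was therefore described by cage, a pattern chosen after its values were seen and given without a test. The ratio of Gsdmc4 to Gsdmc2 was 2.28 to 2.64 in the mice of cage A and 1.52 to 2.19 in those of cages B and C, with no overlap. The ratio of Gsdmc4 to Gsdmc3 was 4.18 to 4.63 against 2.15 to 3.74, again with no overlap. Both genotypes showed it: for Gsdmc4 to Gsdmc2 the WT means were 2.46 in cage A and 1.91 in the others, and the KO means 2.60 and 1.78. Of all other tested genes, 2.23% had a ratio to Gsdmc2 that separated cage A in this way, and 6.57% had such a ratio to Gsdmc3. The ratio of Gsdmc2 to Gsdmc3 overlapped, at 1.68 to 1.83 against 1.42 to 1.78.

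**Figure D4:**
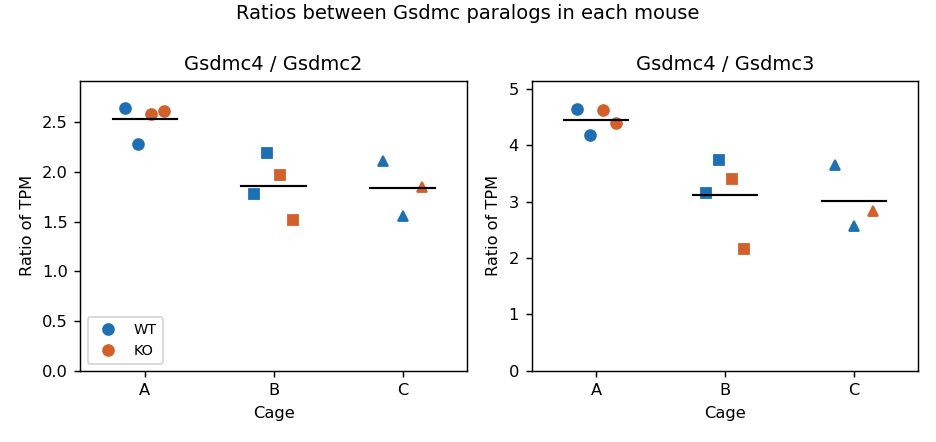
Ratio of TPM of Gsdmc4 to Gsdmc2 (left) and to Gsdmc3 (right) in each mouse (y axis, from 0), by cage (x axis) and genotype (colour), with black bars at the cage mean. All 4 mice of cage A lie above the 7 mice of cages B and C in both panels.

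Cage A also differs from the others in sex as read from a Y-linked transcript: Eif2s3y stood at 21.5 to 31.8 TPM in cage A, and its highest value elsewhere was 0.0523 TPM. Eif2s3y was thus below the filter and not among the genes tested for cage. Sex and cage A cannot be told apart here. By transcript, Gsdmc4-202, which starts at the far upstream exon, had 361 to 443 TPM in cage A and 187 to 395 TPM in cages B and C. Gsdmc4-201 had 239 to 316 against 215 to 364 TPM. Gsdmc2-201 had 56.6 to 88.7 TPM in cage A and 80.3 to 132 TPM in the others. In the F test on cage over 12067 transcripts (limma) their adjusted p was 0.411, 0.868 and 0.405, and 0.00829% of transcripts passed. The unadjusted p was 0.0206 for Gsdmc4-202 and 0.0114 for Gsdmc2-201, below the 0.05 that 10.5% of transcripts reached. No gasdermin transcript was free of overlap between cage A and the rest, as 3.62% of all transcripts were. None passed for genotype either, where 0.0331% of transcripts did. As Gsdmc4-201 and Gsdmc2-201 have no window of their own, these transcript values rest on the quantifier's split of shared sequence.

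Whether the genotype difference depended on cage was tested by the interaction term, and no gasdermin passed (limma; smallest adjusted p = 1.00, against 0.0186% of all genes). Gsdmc2 and Gsdmc4 had unadjusted p of 0.0647 and 0.0741, above the 0.05 that 3.97% of genes reached. The log2 difference of Gsdmc4 within cages A, B and C was 0.08, -0.23 and -0.53, and in cage C the only KO mouse is KO-3. Gsdmc2 had -0.01, -0.04 and -0.55 in the same order, Gsdmc3 had 0.04, 0.12 and -0.42, Gsdmd had -0.19, 0.08 and -0.30, and Gsdme had 0.07, 0.03 and 0.06.

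The promoter of Gsdmc3 is the one of the C genes found among the RefSeq promoters used here (3 of the 9 members matched, with Gsdme and Gsdma3). It is shown because the transcripts of Gsdmc3 differ in where they start, and it belongs to the start of Gsdmc3-203, at 63878558. The 250 bases before the start lie at chr15:63878559-63878808 on the minus strand (RefSeq, GRCm38.p6), with the letters TATATAA of a TATA box in capitals, at position -29 from the start.

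Gsdmc3 promoter: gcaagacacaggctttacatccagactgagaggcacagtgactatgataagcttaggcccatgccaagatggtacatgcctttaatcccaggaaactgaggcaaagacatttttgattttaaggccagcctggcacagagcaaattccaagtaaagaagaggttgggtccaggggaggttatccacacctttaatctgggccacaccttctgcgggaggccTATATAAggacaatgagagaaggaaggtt

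On both strands of 300 bases, TATATAA was present in 3.24% of 32851 RefSeq promoters. The patterns searched for STAT6 (6.95% of promoters), GATA factors (the letters AGATAA only, 11.2%) and HNF4A (0.475%) were not found in this window. Other forms of these motifs were not searched, so the window cannot be called free of sites for these factors. Gsdmc3-203 carried 2.53% of the summed Gsdmc3 TPM, and 97.5% was listed under Gsdmc3-202, which starts at 63877720. The split again rests on few windows, 125 of 2066 for Gsdmc3-203.

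The proteases that cut gasdermins gave no call. Of 12 such genes 7 were tested, 3 with positive and 4 with negative log2 fold changes, 0 passed, and the median was -0.05 against -0.01 over all genes tested. Casp1 averaged 114 ± 18.2 TPM in WT against 108 ± 14.6 TPM in KO. Casp4, the sensor of cytosolic lipopolysaccharide, had 21.5 ± 2.12 and 19.3 ± 2.94 TPM. Casp8 had 44.8 ± 8.35 and 47.1 ± 3.13 TPM. Casp6 had 16.3 ± 1.91 and 14.3 ± 2.52 TPM (log2 fold change -0.19 ± 0.12, limma unadjusted p = 0.144). Its log2 fold change was -0.11 without KO-9 and -0.12 without KO-1, and ranged from -0.25 to -0.11 with each mouse left out.

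Inflammasome sensors and adaptors were likewise uncalled, with 0 of 11 tested genes past the threshold, 8 positive, 3 negative and a median of 0.09. Of all genes tested 46.8% were positive and 53.2% negative, with a median of -0.01. Pycard, the adaptor ASC, ranged from 27.9 to 37.9 TPM in WT and from 31.7 to 37.0 TPM in KO. Aim2, a sensor of DNA, had 22.9 ± 2.46 and 24.1 ± 4.18 TPM, and the epithelial sensor Nlrp6 ranged from 12.2 to 19.6 TPM in WT and 9.41 to 30.4 TPM in KO, highest in KO-3 (log2 fold change 0.29 ± 0.21, from 0.13 without KO-3 to 0.495 without KO-8). The Naip genes, receptors for flagellin and secretion-system proteins, are paralogs that may share reads, with means of 9.31 to 20.0 TPM in WT. Naip6 had the smallest unadjusted p of the list, 0.0740, with 11.5 ± 1.73 and 13.5 ± 2.69 TPM. Nlrc4, their partner, had 6.95 ± 1.26 and 6.91 ± 0.708 TPM. Nek7, a kinase that binds NLRP3, stood at -0.26 ± 0.16 on the log2 scale, at -0.46 without KO-3 and at -0.17 without WT-11. Nlrp3 itself was at 0.0665 and 0.0501 TPM and below the filter.

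Of the cytokines released through gasdermin pores, Il18 was abundant and Il1b was not. Il18 lies on chromosome 9 at 50554827 to 50581840, and Nrg4 on the same chromosome at 55220222 to 55326844. Casp1, Casp4 and Tyk2 are on chromosome 9 as well. The WT mean of Il18 was 149 ± 25.9 TPM and its KO mean 144 ± 34.1 TPM. KO-3 had 84.6 TPM against 150 to 171 TPM for the rest of that genotype. Its log2 fold change of -0.13 ± 0.16 went to 0.08 without KO-3. Il33 had 2.73 ± 1.00 and 2.89 ± 0.728 TPM, and Il1b, at 0.636 and 0.829 TPM, was below the filter. None of the 5 tested genes of this list passed.

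The genes of membrane rupture and repair were mostly lower in value without passing the test. Of 15 genes, all tested, 14 had a negative and 1 a positive log2 fold change and 0 passed; the median was -0.09, against -0.01 for all genes, of which 53.2% were negative and 46.8% positive. At an unadjusted p below 0.05, 2 were lower in KO, Chmp4b and Chmp6, against 2.04% of all genes. Chmp4b, a subunit of the ESCRT-III complex that sheds gasdermin pores from the membrane, had 156 to 171 TPM in WT. The KO mice had 123 (KO-1), 118 (KO-3), 128 (KO-4), 172 (KO-8) and 119 (KO-9) TPM, 4 of them below all WT mice and KO-8 above them. Its log2 fold change was -0.32 ± 0.10 (unadjusted p = 0.0105, limma adjusted p = 1.00). Chmp6 stood at -0.23 ± 0.10 (unadjusted p = 0.04996, limma adjusted p = 1.00). Ninj1, which ruptures the plasma membrane after pore formation, ranged from 4.72 to 21.7 TPM in WT and 8.09 to 17.3 TPM in KO, a wide spread in both genotypes.

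Regulators of gasdermin D were not called (0 of 11, median -0.04). Irf2, a transcription factor that drives Gsdmd, averaged 33.8 ± 7.46 TPM in WT against 38.2 ± 2.91 TPM in KO. Lamtor2 and Rragc, of the Ragulator and Rag complex, had the smallest unadjusted p, 0.0656 and 0.133, with log2 fold changes of 0.33 ± 0.16 and -0.13 ± 0.08.

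Type 2 cytokine signalling, which is known to raise the C genes, gave 0 calls among 10 tested of 18 genes (median 0.03). Stat6 averaged 19.8 ± 2.74 TPM in WT against 20.0 ± 2.31 TPM in KO, and the receptor gene Il13ra1 33.3 ± 4.37 and 33.7 ± 4.35 TPM. Il4ra was below the filter at 0.701 and 0.778 TPM. Retnlb, a goblet cell product that rises with type 2 cytokines, had 2.91 ± 1.95 and 4.34 ± 4.70 TPM and was highest in KO-3, at 11.3 TPM; its log2 fold change of 0.36 ± 0.70 turned to -0.25 without KO-3. Retnla and Tyk2 had the smallest unadjusted p of the list, 0.0894 and 0.496, at 0.97 ± 0.52 and -0.46 ± 0.65. Retnla was highest in KO-1, at 14.7 TPM. Its log2 fold change was 0.56 without WT-7 and ranged from 0.56 to 1.345 with each mouse left out. Tyk2 was near the floor in some mice, with 0.00272 to 3.87 TPM in WT and 6.75e-08 to 2.36 TPM in KO. The pseudocount of 0.5 weighs on its log2 fold change at such levels. That fold change ranged from -0.83 (without WT-5) to 0.0056 (without KO-4).

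Of the 10 names on the list of other gasdermin family genes 5 were listed, and Gsdme was the only one tested. Neighbouring genes were compared because the C genes form a cluster. Within 1000000 bases of the cluster 1 of 4 listed genes was tested, Fam49b, at 63929097 to 64060478, with 27.2 ± 3.95 TPM in WT and 23.9 ± 6.62 TPM in KO (log2 fold change -0.24 ± 0.17, -0.11 without KO-9 and -0.15 without WT-2). With each mouse left out, the log2 fold change of Fam49b ranged from -0.35 to -0.11. Around Gsdmd 48 of 74 genes were tested and 0 passed, 24 with positive and 24 with negative values (median 0.00). The smallest unadjusted p (limma) were those of Ly6m, 0.0268 with -0.66 ± 0.26, and Sharpin, 0.0572 with 0.34 ± 0.16 (0.42 without KO-3). Sharpin ranged from 0.23 to 0.45 with each mouse left out.

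The genes whose levels kept the most constant ratio to each gasdermin over the 11 mice were found by the SD of the log2 ratio, a description, since all genes share the libraries and their scaling. For Gsdmc2 these were Naxe (SD 0.07), Rp9 (0.07) and Prss32 (0.08), and Gsdmc3 followed Gsdmc2 with 0.11. For Gsdmc3 they were Sod1 (0.08), Gstp2 (0.10) and Edf1 (0.10). Gsdmc4 kept a looser company of Tm7sf2 (0.12), Zfand3 (0.12) and Il17rc (0.12), and its ratio to Gsdmc2 and Gsdmc3 varied by 0.29 and 0.36, with a median of 0.36 over its ratios to all genes. For Gsdmd they were Samd9l (0.09), Pcgf6 (0.11) and Got1 (0.11), and for Gsdme, whose own SD was 0.08, Rpl4 (0.05), Tram1 (0.06) and Zfp236 (0.07).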

How the data were processed

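The submitters' processing notes name CASAVA, kallisto, sleuth and the build mm10, without versions or order. The deposited table gives TPM per transcript and mouse, per the file headers, with the authors' p-value and q-value and a deposited log2 ratio of KO over WT. TPM keeps no depth, so counting error is unknown; the listed transcripts summed to 558446 to 770986 TPM per mouse. Of 29213 rows, 405 repeats were dropped and TPM was summed over 22243 genes. The 10756 genes that reached 1 TPM in 5 or more mice were tested with limma 3.58.1 (R 4.3.3), mean-variance trend, on log2(TPM + 0.5). There were terms for cage and genotype, F tests on cage and on the interaction, and Benjamini-Hochberg adjustment over all genes. The fit was also run on values simulated from its own model, which cannot check the assumptions of that model. Nothing in the labels pairs mice. Coordinates and transcripts are from GENCODE M21 (GRCm38, the assembly of mm10), in which all 15 gasdermin transcripts were found; pairwise alignments used Biopython 1.88. The p-values measure the spread between mice. Members, lists and the rule for named genes (all gasdermins, a fixed set of pathway genes, the 2 smallest p of each list, and the 3 genes of most constant ratio to each tested gasdermin) were chosen with earlier results of these data known; some genes that this rule names are not reported here. Alternatives were pseudocounts of 0.1 and 1, other filters, rescaling, no cage term, no trend, single transcripts and each mouse left out.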

Additional observations from a re-analysis of the deposited data

Results flagged for a closer look

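In 35 genes, 70 sets of WT or KO values were checked for a mouse far from the rest of its genotype on the log2 scale, by the gap to the nearest mouse over the whole range; chance gives about 1 in 20 such sets. No gasdermin was among the 4 found. Il18 was low in KO-3, 84.6 TPM against 150 to 171 TPM in the other KO mice (gap 0.807 of the range). Chmp4b was high in KO-8, 172 against 118 to 128 TPM (gap 0.774), and so was Chmp6, 53.0 against 38.4 to 41.9 TPM (gap 0.729). Sharpin was low in KO-3, 7.54 against 11.8 to 13.9 TPM (gap 0.724). Without KO-8 the log2 fold changes of Chmp4b and Chmp6 were -0.42 and -0.32 and did not pass (limma adjusted p = 0.179 and 0.572).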

How the results depend on the processing

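No paired analysis was possible because WT and KO mice share no mouse numbers; cage, which holds both genotypes, was a term of the fit, and differences within cages stand beside the results. Of 283 alternative values of the 5 tested gasdermins over the genotype, cage and interaction tests, 0 passed the threshold (smallest adjusted p = 0.301). The cause of changes under other settings was not tested. With each mouse left out, the log2 fold change ranged from -0.23 to -0.07 for Gsdmc4, -0.20 to -0.02 for Gsdmc2, -0.138 to 0.0823 for Gsdmc3, -0.21 to -0.03 for Gsdmd and 0.03 to 0.07 for Gsdme. Gsdmc3 turned positive without WT-10, KO-3 or KO-4, and Gsdmc3-203 on its own gave 0.30. Other single transcripts that moved a gene's value by over 1.5 times were Gsdmc2-202 (-0.44), Gsdmc2-201 (-0.04), Gsdmc4-201 (-0.11) and Gsdme-205 (0.0071).

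Genes called for genotype were 4, 2 with no filter, 1 with at least 1 TPM in all mice, and 2 to 4 with a mouse left out (2 without WT-2, WT-5, WT-11, KO-1, KO-3 or KO-4). For cage they were 0, 4 with no filter and 0 to 2 with a mouse left out (2 without WT-7, 1 without WT-11). For the interaction they were 2, 12 with a pseudocount of 0.1, 49 with no filter, 0 with at least 1 TPM in all mice, and 0 to 5 with a mouse left out (5 without WT-5, 0 without KO-3, 1 without WT-6, WT-7, WT-10, KO-1, KO-4 or KO-9).

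Signs that turned with a mouse left out gave ranges of -0.113 to 0.0756 for Casp1, -0.0811 to 0.0945 for Nlrc4, -0.0176 to 0.107 for Naip2, -0.0826 to 0.0407 for Pycard, -0.188 to 0.0761 for Il18, -0.0193 to 0.192 for Il33, -0.831 to 0.0056 for Tyk2, -0.0382 to 0.0949 for Il13ra1, -0.0855 to 0.0748 for Stat6 and -0.254 to 0.86 for Retnlb. Pycard was 0.0119 when rescaled without mitochondrially encoded genes. Stat6 was 0.00346 with median-of-ratios rescaling, 0.0202 when rescaled without mitochondrially encoded genes and 0.0154 with no cage term. Depth is unknown here, so precision for Gsdme and Gsdma could not be given.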
